A study of Capra hircus with 2 samples.

Results

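miR-22, miR-221 and miR-222 are microRNAs (miRNAs) known to repress the estrogen receptor gene ESR1, and they were followed in the small RNA of goat endometrium. A listed name was taken as a member when it was named miR-22, miR-221 or miR-222, whatever its species prefix, arm or end annotation. The rule found 6 of 587 distinct names, 4 of miR-22 and 2 of miR-222. No name used here was one of miR-221, which is therefore not analysed here. The endometrium came from Xinong Saanen dairy goats, 24 months old and multiparous, that had been brought into estrus together and mated naturally. One group was the pre-receptive phase at day 5 of gestation (P) and the other the receptive phase at day 15 (R). By the methods of the study, RNA of several goats was mixed into more than 1 pool for each phase and sequenced more than once. The tables hold 1 value per name for each phase. Each phase was therefore treated as 1 library per group, with no replicate check of any difference. The spread between goats was not measured in these libraries.

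A miRNA guides the silencing complex to mRNAs, mainly through its seed, the bases near its 5′ end that pair with the 3′ untranslated region of the target. The hairpin precursor can give a miRNA from its 5′ arm (5p) and from its 3′ arm (3p), and 1 of these arms is usually far more abundant. ESR1 encodes the estrogen receptor alpha, through which estrogen drives growth of the endometrium, and in ruminants its level in the uterine epithelium falls in early pregnancy as the conceptus signals its presence. miR-22 comes from a hairpin of its own, whereas miR-221 and miR-222 come from 1 transcript and share a seed. In the RefSeq gene table of the goat assembly ARS1.2, MIR221 is the gene next to MIR222, and MIR22 stands between TLCD2 and WDR81. ESR1 mRNA itself was not measured in these libraries.

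The sequences listed for the 6 names are shown because the arms, the ends and the seeds differ between them. Capitals mark the seed, bases 2 to 8 from the 5′ end, and T stands for U.
oar-miR-22-3p_R+1: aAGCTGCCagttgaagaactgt
mdo-miR-22-3p_R+1: aAGCTGCCagttgaagaactgca
mmu-miR-22-5p_R-1: aGTTCTTCagtggcaagcttt
mdo-miR-22-5p_L+3_1ss18GA: aTCAGTTCttcagtggcaagcttta
hsa-miR-222-3p_R+2: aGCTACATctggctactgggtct
hsa-miR-222-5p_R-1: cTCAGTAGccagtgtagatcc

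The prefix of a name is the species whose miRBase entry was matched (oar sheep, mdo opossum, mmu mouse, hsa human), and R or L with a number gives the bases added or missing at the right or left end. Both miR-22-3p names shared their first 21 bases and differed at the 3′ end, so they had the same seed. The miR-22-5p names did not share a seed. The opossum name held the whole mouse-named sequence from its base 4 on, with 3 bases before it and 1 after it, which moved bases 2 to 8 to other letters. Its name also records the change G18A against the opossum entry, counted from the 5′ end of the listed sequence. The 6 names thus had 5 distinct seeds, and 0 of the other 581 names shared any of them.

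The abundance of each name was given as normalized expression (NE), the reads of a sequence divided by 1 size factor per library. One read was worth 0.860 NE in R and 1.16 NE in P, and the values of all 6 names were whole reads in both libraries. Which library is R was taken from the column names of the table of known miRNAs. A table of predicted candidates, not used here, has the worth of a read under the opposite names. The table of the authors' own comparison, which holds candidates too, and the candidates printed in the study name the libraries as the table of known miRNAs does. By quantitative PCR the study found miR-449a, miR-182, miR-183 and miR-187 higher in the receptive phase, the direction they have here. By that method miR-200a was nearly equal. Most of the candidates measured went the same way as in the sequencing and the others went the opposite way. Neither miR-22 nor miR-222 was among the miRNAs reported by that method. The listed names summed to 1880606 reads in R and 4032588 reads in P. Each ratio of R to P has a 95% exact (Clopper-Pearson) interval from these reads. The reads carry no molecular identifiers, so that intervals and limits cover counting error only.

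miR-22-3p was the abundant member and rose in the receptive library. oar-miR-22-3p_R+1 had 72245 NE in R and 23823 NE in P, from 84018 and 20485 reads. R was thus the higher library, and the ratio was 3.03 (95% exact interval 2.99 to 3.08), or 1.60 on the log2 scale. Among all listed names it ranked 7 by NE in R and 16 in P, which placed it among the most abundant miRNAs of the tissue in both phases. In R it stood between oar-miR-199a-3p with 82015 NE and oar-miR-26b_R+1 with 59230 NE, and the exact Poisson intervals of these levels did not overlap. In P it stood between mmu-let-7i-5p with 24754 NE and mdo-miR-186-5p_R-1 with 19707 NE, again with intervals apart. The minor 3p name, mdo-miR-22-3p_R+1, was counted with 9 reads in R against 2 in P, a ratio of 3.33 whose interval of 0.689 to 31.6 covers equality. The 3p arm as a whole, both names summed, made up 4.47% of what was listed in R and 0.508% of what was listed in P, with exact intervals of 4.44% to 4.50% and 0.501% to 0.515%.

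**Figure D1:**
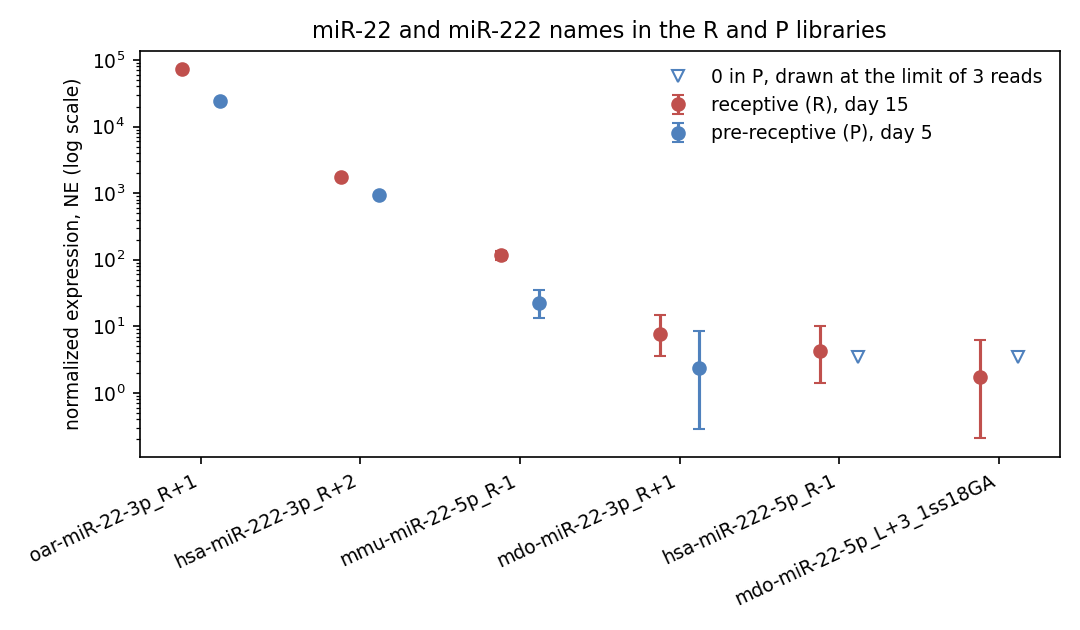
Normalized expression (NE, log scale) of the 6 names in the receptive (red) and pre-receptive (blue) library, with exact 95% Poisson intervals of the reads; open triangles mark a value of 0, drawn at the limit of 3 reads. oar-miR-22-3p_R+1 lies far above the other names in both libraries, with 23823 NE in P and 72245 NE in R.

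The opposite arm of the same hairpin was rare and was also higher in R. mmu-miR-22-5p_R-1 had 116 NE in R and 22.1 NE in P, from 135 and 19 reads, and ranked 160 in R and, tied with other names, 242 in P. Its ratio was 5.25 (95% exact interval 3.24 to 9.0). mdo-miR-22-5p_L+3_1ss18GA, the name with the shifted seed, was counted with 2 reads in R against 0 in P, and no fold is given because both values lie under the 3 reads that a count of 0 allows, equal to 2.58 NE in R and 3.49 NE in P. With both 5p names summed, the log2 ratio of miR-22-5p was 2.41 (1.72 to 3.19), against 1.60 (1.58 to 1.62) for miR-22-3p.

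Because both arms of a hairpin are counted in the same library, their ratio does not depend on how the libraries are scaled. There were 613 reads of miR-22-3p per read of miR-22-5p in R and 1078 in P. R over P, this arm ratio was 0.569 with an exact conditional interval of 0.332 to 0.923, so the 5p arm took a larger part of the miR-22 reads in R, on 19 reads of that arm in P. Both arms were listed with at least 10 reads each in both libraries for 29 miRNAs. miR-22 had the highest 3p over 5p ratio of these in R and in P, followed in both by miR-28. The gap between the log2 ratios of its arms, -0.81 (3p minus 5p), was exceeded in size by 8 of the 28 other miRNAs, whose median gap was 0.57 in size. The arms of miR-22 thus moved apart by an amount also seen in other hairpins. On the NE scale, both arms passed the limit of 2-fold higher in R for 2 of the 29, miR-22 and miR-142. This count depends on the scaling. With the clean read totals or the listed reads as the base, described below, all ratios are higher and more of the 29 pass. Hairpins outside the 29 also passed 2-fold with both arms on the NE scale. The log2 ratios were 1.44 and 1.36 for bta-miR-31_R+2 and hsa-miR-31-3p_R+1, and 1.21 and 2.75 for bta-miR-132 and hsa-miR-132-5p. In this paragraph miR-28, miR-142, miR-143, miR-145, miR-31 and miR-132 were named after their values were seen.

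**Figure D2:**
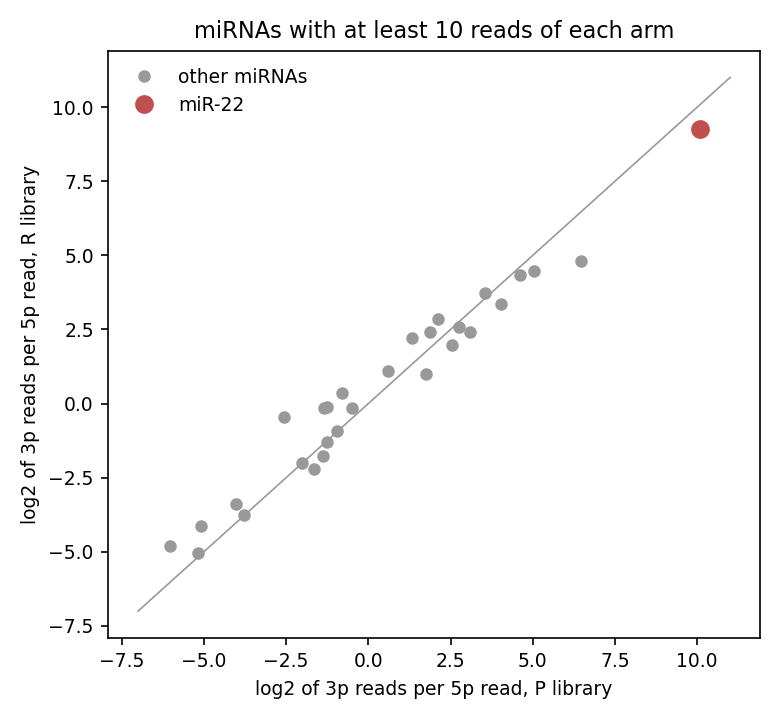
Reads of the 3p arm per read of the 5p arm (log2) in the P library (horizontal) and the R library (vertical). Shown are the 29 miRNAs with names labelled 3p and 5p and at least 10 reads of each arm in each library. The line marks equal ratios. miR-22 (red) stands at the upper end in both libraries and lies 0.81 below the line.

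miR-222 was found at a lower level than miR-22-3p. hsa-miR-222-3p_R+2 had 1770 NE in R and 927 NE in P, from 2059 and 797 reads, and ranked 62 in R and 74 in P. Its level could not be told apart from those of the neighbouring names in either library, bta-miR-339a_R+1 and hsa-miR-9-5p_R-2 in R and hsa-mir-7641-2-p3_1ss22TC and hsa-miR-100-5p in P, since the exact Poisson intervals overlapped. The ratio of R to P was 1.91 (95% exact interval 1.76 to 2.08), which is 0.93 on the log2 scale (0.82 to 1.05). The value lay just under the limit of 2-fold, and its interval included that limit. hsa-miR-222-5p_R-1 was counted with 5 reads in R against 0 in P. Set against the 3 reads that a count of 0 allows, R was at least 1.23-fold higher before the counting error of the 5 reads. The exact interval of the ratio begins at 0.678 and has no upper end, so it covers equality and no difference was detectable at this depth. Within the libraries, 40.8 reads of miR-22-3p were counted per read of miR-222-3p in R and 25.7 in P. R over P, this ratio was 1.59 (exact conditional interval 1.46 to 1.73), so the lead of miR-22-3p over miR-222-3p was larger in R whatever the scaling.

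A name was tested when its NE was above 0 in both libraries and at least 1 in 1 of them, and was called when the ratio exceeded 2-fold. Of the 438 names tested, 100 were called higher in R, which is 22.8%, and 72 were called lower, which is 16.4%. Of the 6 member names, 4 could be tested, 3 of these were called higher (all miR-22) and 0 lower. Their median log2 ratio was 1.67, beside 0.03 over all names tested. The 2 names that were not tested had 0 reads in P, so neither the count nor the median describes the whole group. The exact interval lay wholly beyond 2-fold for 2 of the 3 called, oar-miR-22-3p_R+1 and mmu-miR-22-5p_R-1. Of the 438 names tested, 40 were higher in R and 28 lower by that stricter rule. In the order of log2 ratios, 23 of the names tested lay above mmu-miR-22-5p_R-1, 62 above oar-miR-22-3p_R+1 and 106 above hsa-miR-222-3p_R+2.

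**Figure D3:**
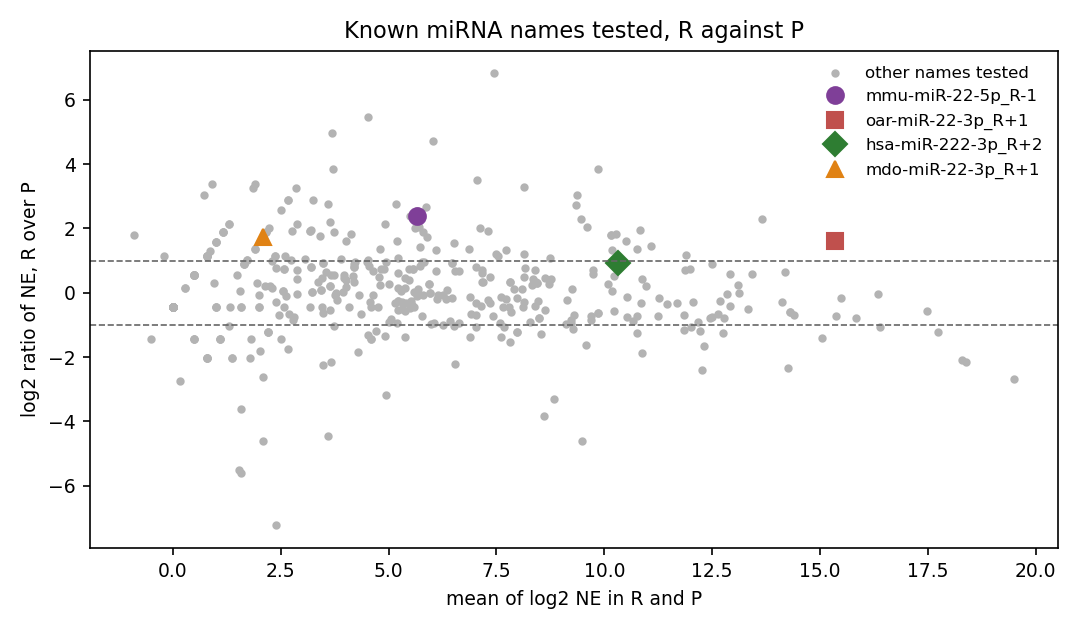
Log2 ratio of NE, R over P, against the mean of log2 NE for the 438 names tested, with broken lines at 2-fold. oar-miR-22-3p_R+1 (square) at 1.60 stands out to the right by its abundance, and hsa-miR-222-3p_R+2 (diamond) at 0.93 lies just under the upper line.

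The abundant names give a second background for miR-22-3p. At least 1000 NE in both libraries was reached by 59 names, of which 5 (8.47%) were called higher in R and 14 (23.7%) lower, with a median log2 ratio of -0.56 on the NE scale, and 1 of the 59 had a higher log2 ratio than oar-miR-22-3p_R+1. That name was hsa-miR-141-3p_R-1, an epithelial miRNA, with 28337 NE in R and 5791 NE in P. With the listed reads as the base of the scaling, 29 of the 59 were called higher and 1 lower, beside 72.1% of all names tested called higher, and with the clean read totals 13 higher and 5 lower, beside 44.5%, while the order of the names was the same. By likeness of the log2 ratio across these 2 libraries, the 5 abundant names nearest to oar-miR-22-3p_R+1 were bta-miR-31_R+2, hsa-miR-34c-5p, cgr-miR-142-5p_L-2R+1, hsa-miR-141-3p_R-1 and bta-miR-199b. The nearest, bta-miR-31_R+2, had 3547 NE in R and 1306 NE in P. Its log2 ratio of 1.44 (95% exact interval 1.35 to 1.54) was 0.16 away from that of miR-22-3p. hsa-miR-34c-5p followed at 1.35 and cgr-miR-142-5p_L-2R+1 at 1.17. The last of the 5, bta-miR-199b, was 0.70 away, at 0.90.

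The scaling of the libraries set how large the ratios were, though not the order of the members. On the NE scale the median log2 ratio of the names tested was near 0. With the clean read totals as the base, the scaling that the methods of the study describe, all log2 ratios were higher by 0.78, and with the listed known reads as the base by 1.54. miR-22-3p lay 1.57 above the median of the names tested, miR-22-5p 2.39 above it and miR-222-3p 0.90 above it, under each scaling alike. The call of miR-222-3p did depend on the scaling, since its log2 ratio was 1.72 with the clean read totals and 2.47 with the listed reads, both past the limit. Of all calls, 58.1% were higher in R on the NE scale, 86.7% with the clean read totals and 96.0% with the listed reads. The libraries differed in composition, with aja-miR-143_1ss22GT alone at 17.9% of the listed reads in R and 39.8% in P, and its part in the ratios was not tested. Without it and the other 2 most abundant names, oar-miR-10b_L+1R-1 and oar-miR-10a_R+1_1ss12TA, in the listed total, a scaling chosen after seeing the data, the log2 ratio of miR-22-3p was 2.12 and that of miR-222-3p 1.45.

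**Figure D4:**
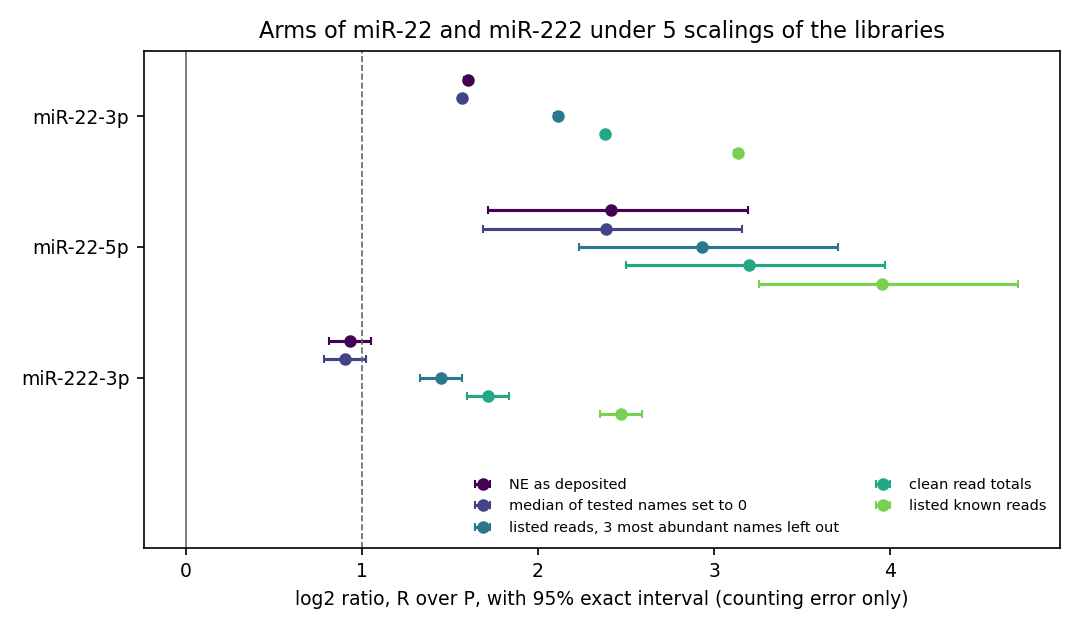
Log2 ratio, R over P, of 3 arms (rows) under 5 scalings of the libraries (colours), with 95% exact intervals of the reads; the broken line marks 2-fold. miR-22-3p runs from 1.57 to 3.14 and stays past 2-fold in each, whereas miR-222-3p crosses the line, from 0.90 to 2.47.

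Other miRNAs known to repress ESR1 were listed by miRNA, so names of both arms were counted. Which arm acts on ESR1 was not tested. On the NE scale the only upward call was of the less abundant arm of miR-19a, on 4 reads in R and 1 in P. By the most abundant name of each miRNA there was no upward call on that scale. Those of miR-19a and miR-145 were called lower, and that of miR-18a was not called. Of the 9 miRNAs of this list, 3 had names here (miR-18a, miR-19a and miR-145) and the remaining 6 are not analysed here. All 6 names of these 3 were tested, of which 1 was called higher in R and 3 lower (beside 22.8% and 16.4% of all names), with a median log2 ratio of -0.26 beside 0.03 over all names tested. With the clean read totals 3 were called higher and 1 lower, beside 44.5% and 6.85% of all names. With the listed reads 3 were called higher and 0 lower, beside 72.1% and 2.97%, at a median of 1.28 beside 1.56. The summed level of the 6 names was 2752 NE in R and 12931 NE in P, a log2 ratio of -2.23 that stayed below 0 under the scalings run, at -0.70 with the listed reads, and cfa-miR-145 made up most of the sum in both libraries. cfa-miR-145, abundant in smooth muscle, stood at 2123 NE in R against 11339 NE in P. It fell by 2.42 on the log2 scale, with an exact interval of -2.48 to -2.35. Its 3p arm, hsa-miR-145-3p_L-2R+1, fell as well, with 433 NE in R and 1335 NE in P. age-miR-19a_1ss23AT, from a polycistronic cluster known to promote cell growth, had 90.3 NE in R and 191 NE in P. Its log2 ratio was -1.08, which turned to 0.46 with the listed reads as the base. hsa-miR-19a-5p_L+1R-3 passed the limit upward on 4 reads in R and 1 in P, and its interval of -1.77 to 7.19 (log2) covers equality. cfa-miR-18a_R-1, of another hairpin in that cluster, had 86.8 NE in R and 54.7 NE in P, with a log2 ratio of 0.67 (0.16 to 1.20), and hsa-miR-18a-3p_R-1 had 15.5 and 10.5 NE.

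Markers of several cell types differed between the libraries beside miR-22 and miR-222. In bulk tissue, more cells of a type and more RNA per cell cannot be told apart. The counts of each list on the NE scale stand beside 22.8% of all names tested called higher and 16.4% called lower. Of 17 names of epithelial miRNAs, 14 were tested, 13 were called higher in R and 0 lower, and their summed level was 38636 NE in R and 6997 NE in P, a ratio of 5.52. The most abundant of them was hsa-miR-141-3p_R-1, with a log2 ratio of 2.29, and 3 names were at 0 in P. The striated muscle list went the other way, with 5 of 6 names called lower in R. Its summed level was 211 NE in R and 3795 NE in P, led by oar-miR-133_L+1 with 145 and 3558 NE. Of the names called, hsa-miR-1_1ss1TC, hsa-miR-133a-5p and oar-miR-133_L+1R-2 had 0.5 reads each in R. hsa-miR-499a-5p turned from -1.03 (log2) to 0.50 with the listed reads as the base, where 4 names were called lower and 1 higher. These 4 names were picked out after their values were seen. The list of smooth muscle and stroma summed to 389750 NE in R and 1976680 NE in P, which is the weight of aja-miR-143_1ss22GT, and 4 of its 11 names were called lower on the NE scale, but 1 lower and 7 higher with the listed reads as the base, where 2.97% of all names tested were called lower and 72.1% higher. The leukocyte list summed to 7463 NE in R and 4920 NE in P, with 2 of 3 tested names called higher, the most abundant being cgr-miR-142-5p_L-2R+1, and 2 further names at 0 in P. Both called names were arms of miR-142, and the other tested name, hsa-miR-155-5p, had 1348 NE in R and 2211 NE in P, a log2 ratio of -0.71 (-0.81 to -0.62) that turned to 0.07 with the clean read totals and to 0.82 with the listed reads. It was named after its values were seen. The endothelial list, led by hsa-miR-126-5p with 23369 and 14955 NE, summed to 32841 NE in R and 21287 NE in P, and the erythroid list, led by cgr-miR-486-5p with 5052 and 8073 NE, to 5580 and 8749 NE, with 0 calls in either list on the NE scale. With the clean read totals as the base, where 44.5% of all names tested were called higher, 3 of 4 endothelial and 3 of 6 erythroid names were called higher, and with the listed reads, where 72.1% were, 4 and 3. The 6 erythroid names hold 4 sequences, each taken once in the summed level. The 3 calls are those of aja-miR-144 and hsa-miR-144-3p, which are 1 sequence, and of ssc-miR-451_L+3R-1 with 2 reads in R and 1 in P, all named after their values were seen. The summed log2 ratio of the erythroid list, -0.65, turned to 0.13 with the clean read totals and to 0.89 with the listed reads, while those of the other lists kept their sign. The part of cell makeup in the ratios of miR-22 and miR-222 was not tested.

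**Figure D5:**
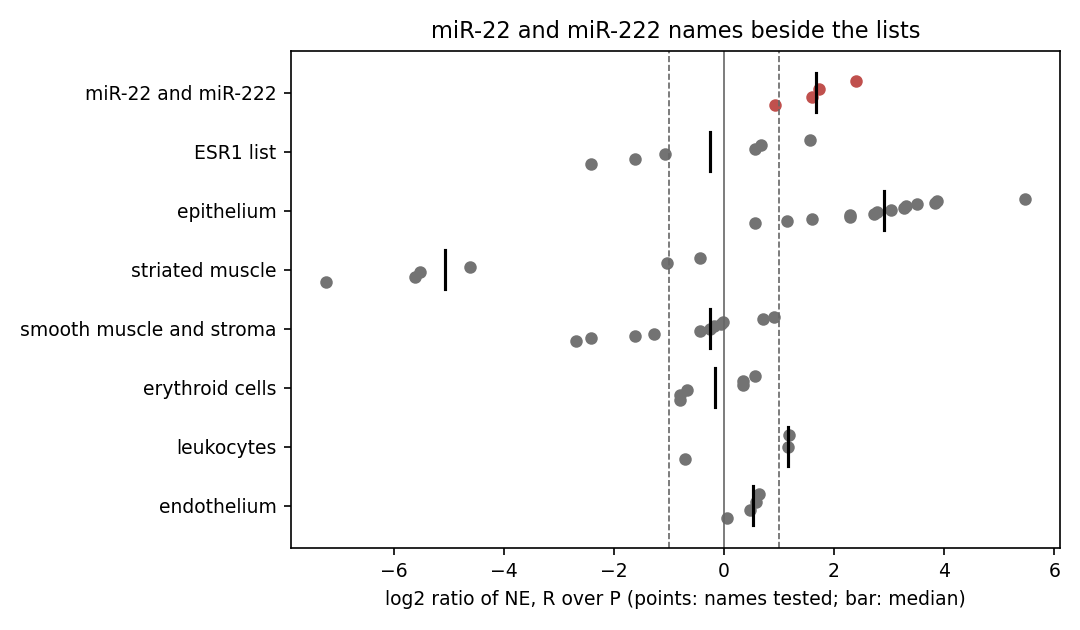
Log2 ratio of NE, R over P, of each name tested (points) with the median (bar) for miR-22 and miR-222 (red), the ESR1 list and 6 marker lists; broken lines mark 2-fold. The 4 tested member names lie between 0.93 and 2.39, with the epithelial median at 2.91 above them and the leukocyte median at 1.17 among them.

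Predicted targets were listed for 142 names that had been called different between the libraries, and these included 3 of the 6 member names, all of miR-22. The table gives each target as a numeric transcript identifier, 0 of the 7608 identifiers equalled a gene ID of the RefSeq table, and whether ESR1 is among them was therefore not analysed here. oar-miR-22-3p_R+1 had 963 targets, mdo-miR-22-3p_R+1 had 970 and mmu-miR-22-5p_R-1 had 1047, while the median over all 142 names was 578.5. The names of the 3p arm shared 958 targets, 99.5% of the first list and 98.8% of the second. Across the table, pairs of known names with the same seed (19 pairs) shared a median of 95.9% of the shorter list, and pairs with different seeds (7121 pairs) 18.0%.

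The arms of miR-22 had lists of their own. Of the 975 targets of the 3p arm and the 1047 of the 5p arm, 201 were common to both, which is 20.6% of the former and 19.2% of the latter and close to the median of pairs with different seeds. Together the arms covered 1821 identifiers, 23.9% of all those listed. Of these, 17 (0.93%) were listed for no other miRNA. Among the names of the ESR1 list, cfa-miR-145 shared 201 targets with oar-miR-22-3p_R+1 (18.8% of its own list and 20.9% of that of miR-22-3p) and age-miR-19a_1ss23AT shared 112 (20.8% and 11.6%), beside a median of 19.8% of the list over the 139 names other than miR-22. These are predictions from sequence and no target level was measured.

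In the table of species with matching precursors, mir-22 was listed for 10 of 23 species and mir-222, letter variants included, for 14. Both were listed for 7 species, among them mouse, dog, pig and rat, and 6 species had neither. Sheep was listed with mir-22, the source of the abundant 3p name, and human with mir-222. The table records which miRBase entries were matched and involves no comparison of the libraries.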

How the data were processed

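Small RNA libraries of pooled endometrium RNA (TruSeq kit, single-end reads, HiSeq instrument) were made and filtered by the authors with ACGT101-miR, and reads were matched to miRBase by BLAST. The deposited signal (NE) behaved as reads over 1 size factor for each library. In the methods of the study NE is scaled to the clean reads instead. A read of R, the library with fewer clean reads, would then be worth more than a read of P, but it was worth less. A whole number of reads, within 0.001, was found for 79.1% of the names above 0 in R and 83.1% in P, so the Fisher test that had been planned was not run. Intervals were computed for each name from its reads, fractions of a read included. Names listed for several precursors (54 of 587) were counted once. Targets had been predicted by the authors with TargetScan and miRanda, and the identifier column sorted together with the names was used. A table of predicted candidates, whose R and P names are by the worth of a read the reverse of those in the other tables, and the authors' comparison (fold, log2 fold and p-value) were not used, nor were their 4 columns of values per library. The members and lists were chosen with earlier results of these data known. The text names every member, every name of the ESR1 list, the 5 abundant names nearest in log2 ratio and the most abundant name of each marker list. Calls and intervals were tested on simulated data. Neighbours in the order of levels were named after their values were seen. Intervals were computed with scipy 1.17.1, tables with pandas 2.3.3 and numpy 2.4.6, and figures with matplotlib 3.10.9, all under Python 3.11.15.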

Additional observations from a re-analysis of the deposited data

How the results depend on the processing

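A scaling shifts the log2 ratios of all names alike. With the clean read totals the log2 ratio of miR-22-3p was 2.38, of miR-22-5p 3.20 and of miR-222-3p 1.72, with 195 names called higher and 30 lower. With the listed known reads they were 3.14, 3.95 and 2.47, with 316 names called higher and 13 lower. Without the 3 most abundant names in the listed total, chosen after seeing the data, miR-22-3p had 2.12 and miR-222-3p 1.45, with 165 names called higher and 34 lower. The median set to 0 moved miR-22-3p to 1.57. At least 10 reads in each library left 45 names called higher and 40 lower, and a whole interval beyond 2-fold, fractions of a read included, left 40 and 28, since fewer names can pass. The log2 ratio of miR-222-5p, 0.30 against 3 reads, was 2.41 with a pseudocount of 1 NE, and its interval has no upper end, so no alternative above could leave it. The pseudocount, the most abundant name alone, no minimum and every entry counted kept the other values within their intervals or within 1.5 times. The Fisher test was not run, because not all values are whole reads. miR-221 gave no value. No paired analysis was possible because each group has 1 library. Depth limits miR-22-5p (19 reads in P) and miR-222-5p (5 and 0 reads) most.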
